A study of Mus musculus with 6 samples.

Results

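Surface Toll-like receptors and the proteins that serve them were followed as 10 genes in primary alveolar macrophages, the phagocytes that live on the air side of the lung. The genes were picked by symbol and were the receptors Tlr1, Tlr2, Tlr4, Tlr5 and Tlr6, the lipopolysaccharide co-receptors Cd14 and Ly96, the adaptors Myd88 and Ticam1, and the inhibitory kinase-like protein gene Irak3. All 10 were among the 17142 genes of the expression table. The study set 3 wild-type libraries against 3 Trim33 knockout libraries, all from mice given a single allergen challenge, to ask which transcripts differ in macrophages without Trim33, a chromatin-binding tripartite-motif protein. Every group carried the allergen exposure, and no unexposed library was analysed here. The sources used here name no strain, age, allergen, deleted exon or cell type of deletion. They also leave unsaid whether libraries stand for separate animals, so p-values cover only a spread between libraries that may be technical.

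Toll-like receptors are membrane proteins that bind conserved microbial molecules through leucine-rich repeats and signal through a cytoplasmic TIR domain. At the cell surface, TLR2 pairs with TLR1 or TLR6 to sense bacterial lipopeptides, TLR4 with MD-2 (the product of Ly96) senses lipopolysaccharide handed over by CD14, and TLR5 senses flagellin. MyD88 carries the signal of these receptors to IRAK kinases and NF-κB, TRIF (the product of Ticam1) carries a second branch of TLR4 signalling towards interferon regulatory factors, and IRAK-M (the product of Irak3) restrains the MyD88 branch.

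On GRCm38.p6, by the RefSeq annotation, Tlr1 lies on chromosome 5 from 64924680 to 64933600 and Tlr6 next to it from 64953092 to 64970942. Tlr2 lies on chromosome 3 from 83836272 to 83841824, Tlr4 on chromosome 4 from 66827551 to 66846581 and Tlr5 on chromosome 1 from 182954752 to 182976044. Ly96 lies on chromosome 1 from 16688456 to 16709605. Myd88 lies on chromosome 9 from 119335934 to 119340018, Ticam1 on chromosome 17 from 56269462 to 56276767 and Irak3 on chromosome 10 from 120141648 to 120202130. The values are totals per gene, so exons, introns and UTRs cannot be told apart.

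Tlr1 and Tlr6 are neighbours and close paralogs, so their sequences are shown first because they limit how well their reads can be separated. Over the aligned coding sequences of 2385 and 2418 bases in the GENCODE M21 annotation of GRCm38, 74.8% of aligned bases were identical, and the longest run without a difference had 229 bases. Of all 100-base windows of the Tlr1 coding sequence, 11.3% were present letter for letter in Tlr6, against 0 of 2286 in Tlr2. The stretch is coding exon sequence in both genes, and capitals mark the shared run, with 15 bases on each side in lower case.
Tlr1 coding stretch, chr5:64925522-64925780, minus strand: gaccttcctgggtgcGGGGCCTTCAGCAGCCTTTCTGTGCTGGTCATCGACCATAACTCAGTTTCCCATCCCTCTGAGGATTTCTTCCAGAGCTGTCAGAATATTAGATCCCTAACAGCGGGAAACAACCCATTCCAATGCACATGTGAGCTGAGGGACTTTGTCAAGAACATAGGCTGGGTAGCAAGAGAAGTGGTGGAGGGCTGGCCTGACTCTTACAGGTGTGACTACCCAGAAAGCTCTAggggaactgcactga
Tlr6 coding stretch, chr5:64953813-64954071, minus strand: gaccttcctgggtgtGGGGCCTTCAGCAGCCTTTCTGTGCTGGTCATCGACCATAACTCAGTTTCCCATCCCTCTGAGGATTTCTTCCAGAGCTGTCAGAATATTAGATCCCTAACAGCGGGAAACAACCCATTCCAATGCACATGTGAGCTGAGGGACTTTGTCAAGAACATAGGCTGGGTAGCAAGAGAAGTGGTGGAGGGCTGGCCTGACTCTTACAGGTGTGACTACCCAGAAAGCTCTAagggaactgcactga
Reads that fall within the capitals match both genes, and how the authors' counting assigned them is unknown, so the values of this pair are uncertain to that extent.

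Promoter windows of RefSeq on GRCm38.p6 ran from 250 bases before to 50 bases after a transcript start. They were examined for 7 of the 10 genes, in 10 windows. No window was examined for Tlr4, Cd14 or Ly96, so motifs of these genes are not described. Windows are shown for the most abundant receptor (Tlr2), the shared adaptor (Myd88) and the least abundant receptor (Tlr1, which has a pair of starts). Capitals mark matches, on either strand, to the interferon-stimulated response element (GAAA repeated after any 2 bases), the gamma-activated site TTCNNNGAA, the PU.1 core GAGGAA or the NF-κB consensus.
Tlr2 start window, chr3:83841559-83841858, minus strand: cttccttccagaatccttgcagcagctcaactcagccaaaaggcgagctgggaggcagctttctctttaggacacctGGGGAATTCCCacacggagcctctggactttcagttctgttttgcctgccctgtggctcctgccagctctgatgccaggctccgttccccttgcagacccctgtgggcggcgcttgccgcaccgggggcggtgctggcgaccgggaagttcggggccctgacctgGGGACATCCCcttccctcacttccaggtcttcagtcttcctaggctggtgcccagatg
Myd88 start window, chr9:119339969-119340268, minus strand: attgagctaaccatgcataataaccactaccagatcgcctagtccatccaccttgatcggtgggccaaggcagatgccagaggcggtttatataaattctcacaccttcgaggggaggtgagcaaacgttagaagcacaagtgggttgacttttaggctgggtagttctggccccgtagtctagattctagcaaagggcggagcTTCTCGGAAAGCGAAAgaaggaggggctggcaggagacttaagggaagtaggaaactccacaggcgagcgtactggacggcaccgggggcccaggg
Tlr1 start window, chr5:64933509-64933808, minus strand: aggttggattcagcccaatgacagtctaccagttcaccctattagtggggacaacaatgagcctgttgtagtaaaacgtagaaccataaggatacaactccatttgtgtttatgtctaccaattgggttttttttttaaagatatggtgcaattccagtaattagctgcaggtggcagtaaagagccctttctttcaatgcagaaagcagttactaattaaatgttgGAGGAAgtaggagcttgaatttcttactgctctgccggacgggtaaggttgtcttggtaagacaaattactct
Tlr1 start window, chr5:64932650-64932949, minus strand: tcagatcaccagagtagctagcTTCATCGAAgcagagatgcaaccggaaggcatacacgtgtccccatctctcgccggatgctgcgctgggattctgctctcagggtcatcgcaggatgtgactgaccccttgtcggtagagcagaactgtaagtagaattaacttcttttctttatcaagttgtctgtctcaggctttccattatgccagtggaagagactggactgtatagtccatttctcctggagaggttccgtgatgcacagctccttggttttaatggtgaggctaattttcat
The Tlr2 window held NF-κB matches that begin 173, 172 and 8 bases before the start, of which the first and second overlap, and 4.51% of 32851 windows of the same length held at least 1. The Myd88 window held an interferon-stimulated response element 40 bases before the start, a motif present in 3.44% of windows, overlapping a gamma-activated site that begins 46 bases before it, a motif present in 8.3% of windows. The Tlr1 windows held a gamma-activated site 228 bases before one start and a PU.1 core, present in 28.3% of windows, 23 bases before the other. Among windows not printed, 1 of the Tlr6 pair held overlapping interferon-stimulated response elements at 116 and 110 bases, the other held gamma-activated sites, 1 of the Irak3 pair and that of Ticam1 held a PU.1 core, and the Tlr5 window held no match. The starts used for Tlr1, Tlr2, Tlr5 and Tlr6 lay inside the gene spans given above, not at their upstream ends. The Tlr2 matches at 173 and 172 bases therefore fell within the Tlr2 span. A match describes letters only.

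Values are TPM, transcripts per 1000000 after scaling by length, which keep no record of sequencing depth. The libraries had between 15182 and 15535 genes above 0. Trim33 had 6.83, 10.97 and 6.86 TPM (wild type) against 2.63, 3.34 and 3.98 TPM (knockout), a log2 difference of -1.08 ± 0.19 (SE, limma adjusted p 0.0114). The 10 alveolar macrophage markers were all present, Chil3, for example, between 10660 and 19218 TPM and Siglecf, the lectin gene used to sort these cells, between 263 and 434 TPM. Their sum was between 29066 and 30794 TPM in wild type and between 20447 and 22969 TPM in knockout, with 5 lower (Siglecf, Chil3, Mrc1, Ear1 and Ear2) and none higher, and its part in the results below was not tested. Of eosinophil markers, the granule gene Prg2 was listed at 0 in all libraries but knockout replicate 2, at 0.11 TPM, and the interleukin-5 receptor gene Il5ra had 1.31, 1.48 and 1.01 TPM (wild type) against 0.98, 0.70 and 0.35 TPM (knockout), all below wild type. Over 11111 genes tested (1 TPM or more in 3 or more of the 6 libraries, compared by limma on the log2(TPM + 1) scale, n = 3 per group), 497 were higher and 1129 lower at an adjusted p under 0.05, or 665 and 383 after median-ratio scaling. Across tested genes the differences had a median of -0.15 (log2), which that scaling brought to -0.0025. Median-ratio factors were between 1.005 and 1.147 in wild type, the highest in replicate 2, and between 0.93 and 0.957 in knockout.

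No gene of the receptor set passed the test between the genotypes. Tlr2, Cd14 and Myd88 were abundant in both, Tlr4, Irak3 and Ly96 were intermediate, Ticam1, Tlr5 and Tlr6 were lower, and Tlr1 was close to 0 in wild type. Of the 9 members that passed the filter on low values, limma called 0 higher and 0 lower in the knockout, and none had an unadjusted p under 0.05, the smallest being 0.0552 for Tlr6. Across all tested genes 14.6% were called in either direction, and with only 9 genes a count of 0 is near that background. That share is for adjusted p. None was taken for unadjusted p, so counts at that cut, here and below, have no background beside them. The median log2 difference of the 9 was -0.04, against -0.15 over all genes, with 3 differences positive and 6 negative, and 28.1% of all tested genes were positive. After median-ratio scaling the medians were 0.12 for the members and -0.0025 for all genes. Groups did not overlap for 1 of the 9, Tlr6, whose knockout values were below, against 44.4% of all tested genes (9.84% with all knockout values above and 34.6% below). Tlr1 did not pass the filter and was compared on its own. In bulk RNA, fewer cells of a type and less RNA per cell cannot be told apart.

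**Figure D1:**
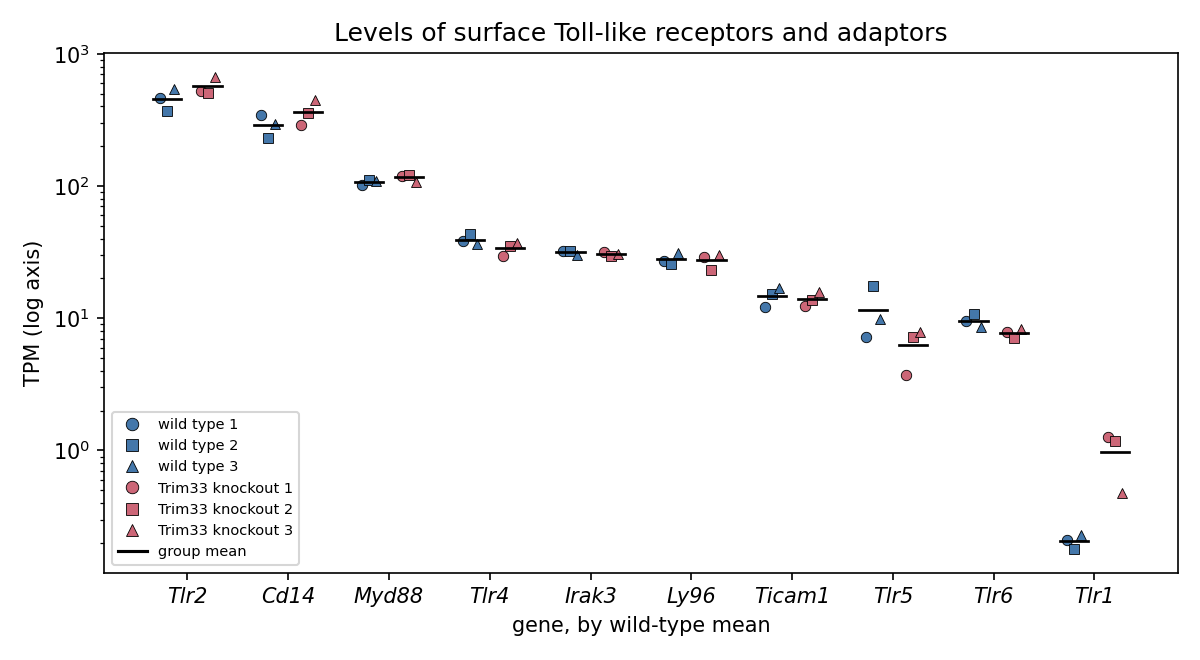
TPM (log axis) of the 10 genes in each of the 6 libraries, ordered by wild-type mean, with 1 point per library and a bar at the group mean. The groups lie side by side for most genes, while Tlr1 has its 3 knockout points, from 0.48 to 1.26 TPM, above the 3 wild-type points.

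Tlr2, the lipopeptide receptor that is common to both heterodimers, was the most abundant member. It had 462, 368 and 544 TPM in wild-type replicates 1, 2 and 3 and 526, 506 and 671 TPM in knockout replicates 1, 2 and 3. The knockout mean of 568 ± 90.2 TPM was 1.24-fold the wild-type mean of 458 ± 87.9 TPM (SD, n = 3 each), and the ranges overlapped because wild-type replicate 3 lay above knockout replicates 1 and 2. The log2 difference was 0.32 ± 0.16 (SE), with a 95% interval from -0.04 to 0.67 and a limma adjusted p of 0.170. For Tlr2 it was 0.17 without wild-type replicate 2, 0.19 without knockout replicate 3 and 0.48 after median-ratio scaling.

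The partner genes of Tlr2 were far lower and differed from each other. Tlr6, which encodes the partner for diacylated lipopeptides, had 9.48, 10.74 and 8.61 TPM (wild type) against 7.90, 7.10 and 8.26 TPM (knockout). Every knockout library was below every wild-type library, but by little, 8.26 against 8.61 TPM at the closest. The log2 difference was -0.27 ± 0.13 (SE), with a 95% interval from -0.56 to 0.01 and a limma adjusted p of 0.142, and it was -0.11 after quantile normalization, the smallest size among the alternatives. The Tlr6 span also overlaps that of Fam114a1, and reads from overlapping genes may not have been separable.

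Tlr1, the partner for triacylated lipopeptides, was listed at 0.21, 0.18 and 0.23 TPM (wild type) against 1.26, 1.18 and 0.48 TPM (knockout). All 3 knockout values lay above all 3 wild-type values, and the ratio of means was 4.71. On the log2(TPM + 1) scale, where the pseudocount shrinks changes at such low levels, Tlr1 differed by 0.68. A two-sided exact permutation test over the 6 libraries gave p = 0.1, the smallest that 3 against 3 allow. With no filter on low values the gene entered the limma fit and had an adjusted p of 0.0592. The Tlr1 difference was positive under all 11 alternatives that gave one, between 0.20 and 1.71. Because the groups did not overlap, that sign was fixed in advance for another pseudocount, no filter or a library left out. Even the highest knockout level of Tlr1 was under that of Tlr6 in any library, and some of the reads of the pair cannot be told apart, as the shared stretch above shows.

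Some markers of monocytes and interstitial macrophages followed the order of Tlr1. Ly6c2 and Plac8 passed as higher, none of the 10 such markers passed as lower, and 8 had all knockout values above all wild-type values. Their summed level was between 43.0 and 92.6 TPM in wild type and between 142.7 and 417 TPM in knockout. Ly6c2, a surface antigen of inflammatory monocytes, had 74.5, 73.3 and 18.8 TPM in knockout replicates 1, 2 and 3, the same order as Tlr1 there, and C1qa, a complement gene of interstitial macrophages, had 55.7, 34.3 and 14.8 TPM. Ccr2, the chemokine receptor that defines inflammatory monocytes, had 4.04, 5.88 and 4.58 TPM (wild type) against 6.27, 4.23 and 3 TPM (knockout), and none of the 10 markers was at 0. The part of such cells in the Tlr1 values was not tested.

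Tlr5, the flagellin receptor, had the largest standard error of the 9 tested members. It had 7.26, 17.41 and 9.92 TPM (wild type) against 3.75, 7.19 and 7.85 TPM (knockout). Wild-type replicate 2 stood high and knockout replicate 1 low, and the groups overlapped, with wild-type replicate 1 inside the knockout range. The means were 11.5 ± 5.26 and 6.26 ± 2.2 TPM (SD, n = 3 each), and the log2 difference was -0.76 ± 0.35 (SE), with a 95% interval from -1.60 to 0.09 and a limma adjusted p of 0.168. It was -0.44 without wild-type replicate 2 and -0.48 without knockout replicate 1.

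Of 9 lung epithelial markers, Sftpb and Sftpc, singled out after their values were seen, had their highest and lowest libraries in common with Tlr5, and the other 7 did not. Sftpb, which encodes surfactant protein B, had 9.09, 16.37 and 9.25 TPM (wild type) against 3.47, 8.46 and 7.35 TPM (knockout), and Sftpc, a surfactant protein gene of type II cells, had 51.7, 84.8 and 66.8 TPM and 23.02, 55.02 and 55.9 TPM. Wild-type replicate 2 was the highest and knockout replicate 1 the lowest for Tlr5, Sftpb and Sftpc. Sftpa1, another surfactant gene, had 3.66, 3.94 and 3.81 TPM (wild type) against 1.85, 4.70 and 3.25 TPM (knockout), highest in knockout replicate 2, as was Scgb1a1, a club cell gene, at 150.1 TPM. The 9 epithelial markers together summed to between 223 and 287 TPM in wild type and between 160.6 and 289 TPM in knockout, none was at 0, and none of the 8 tested passed in either direction. Neutrophil markers, 10 in all, summed to between 186 and 201 TPM in wild type and between 176 and 198 TPM in knockout, with S100a8 the most abundant in each library, and Ly6g and Camp were listed at 0 in all 3 wild-type libraries. The part of other cells in the Tlr5 values was not tested.

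**Figure D2:**
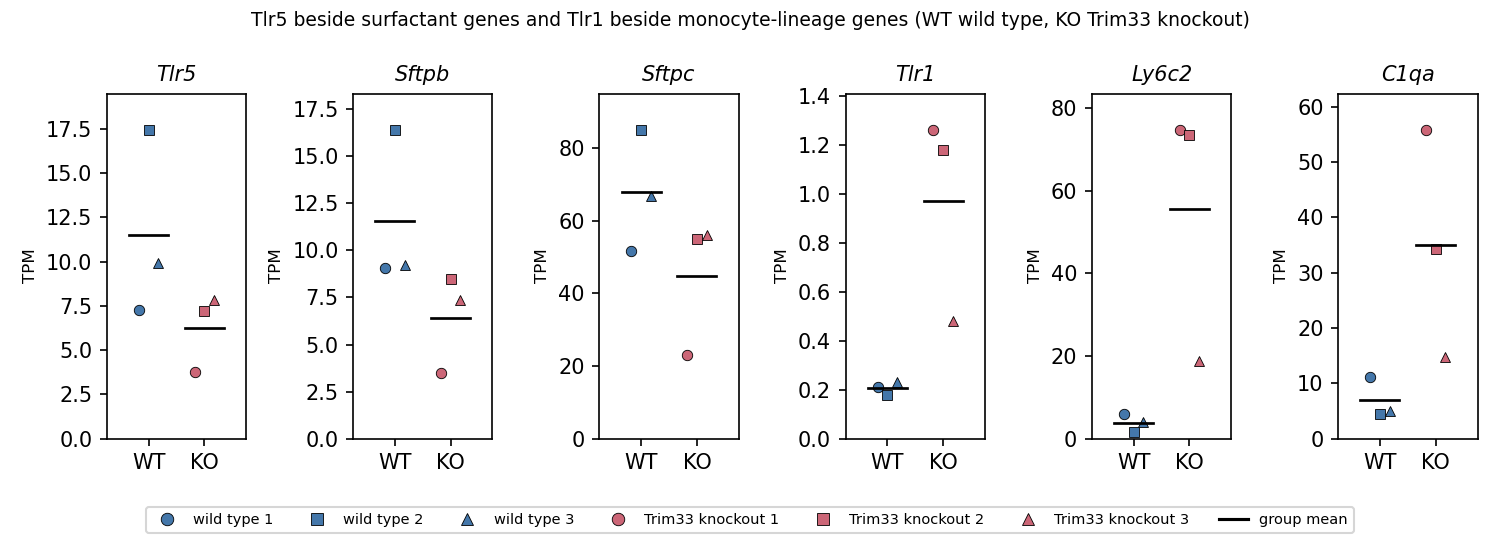
TPM per library (linear axes from 0, 1 point per library, bar at the group mean) of Tlr5 beside the surfactant genes Sftpb and Sftpc, and of Tlr1 beside Ly6c2 and C1qa, the markers being singled out after their values were seen. Wild-type replicate 2 is highest and knockout replicate 1 lowest in the first 3 panels, and knockout replicate 1 is highest in the others.

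For lipopolysaccharide recognition, the receptor gene Tlr4 had 38.4, 42.97 and 36.3 TPM (wild type) against 29.6, 35.2 and 36.97 TPM (knockout). Knockout replicate 3 lay within the wild-type range and the other 2 below it, with a log2 difference of -0.21 ± 0.11 (SE), a 95% interval from -0.45 to 0.04 and a limma adjusted p of 0.191. After median-ratio scaling and on the other alternatives tried, the Tlr4 difference stayed negative, between -0.27 and -0.05, and passed in none of them.

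Cd14, the membrane-anchored co-receptor that delivers lipopolysaccharide (chromosome 18, 36725064 to 36726815 on GRCm38.p6), had 347, 232 and 294 TPM (wild type) against 292, 354 and 447 TPM (knockout). Wild-type replicate 2 was lowest and knockout replicate 3 highest, while knockout replicate 1 lay within the wild-type range. The means were 291 ± 57.5 and 364 ± 77.96 TPM (SD, n = 3 each), with a log2 difference of 0.32 ± 0.19 (SE), a 95% interval from -0.12 to 0.76 and a limma adjusted p of 0.247. For Cd14 it was 0.17 without wild-type replicate 2 and 0.16 without knockout replicate 3. Ly96, the extracellular partner without which TLR4 does not bind lipopolysaccharide, had 27.3, 25.5 and 31.2 TPM (wild type) against 29.2, 23.2 and 29.9 TPM (knockout). The Ly96 ranges overlapped, with knockout replicate 2 below all wild-type values and wild-type replicate 3 above all knockout values, and the log2 difference of -0.03 ± 0.12 (SE, 95% interval from -0.30 to 0.24) turned positive, to 0.12, after median-ratio scaling.

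Neither the adaptors nor the inhibitor passed the test. Myd88 had 102, 111 and 109.5 TPM (wild type) against 119, 122 and 107.8 TPM (knockout), with knockout replicate 3 inside the wild-type range. For Myd88 the log2 difference was 0.11 ± 0.08 (SE), with a 95% interval from -0.08 to 0.29 and a limma adjusted p of 0.359, and after median-ratio scaling it was 0.27 with an adjusted p of 0.0769. Ticam1 had 12.2, 15.2 and 16.9 TPM (wild type) against 12.4, 13.8 and 15.8 TPM (knockout), all within the wild-type range, with a log2 difference of -0.07 ± 0.14 (SE, 95% interval from -0.38 to 0.24). Irak3, whose span overlaps that of non-coding genes, had 32.3, 32.2 and 30.2 TPM (wild type) against 31.9, 29.7 and 30.7 TPM (knockout), with a log2 difference of -0.04 ± 0.09 (SE, 95% interval from -0.23 to 0.16). The small Ticam1 and Irak3 differences took the other sign after median-ratio scaling, at 0.08 and 0.12.

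**Figure D3:**
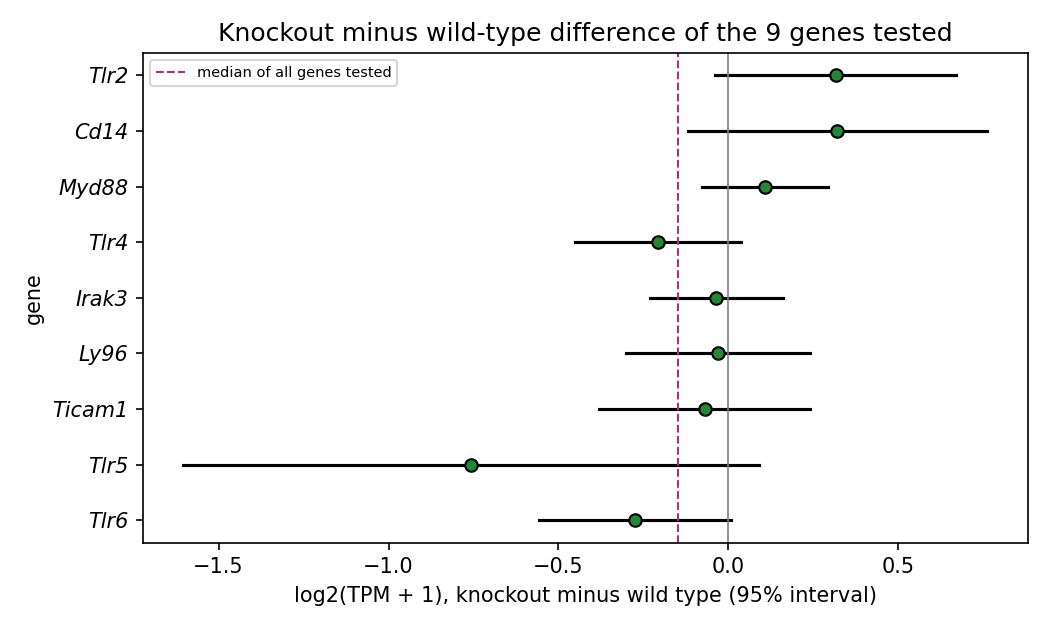
Difference in log2(TPM + 1), knockout minus wild type, of the 9 genes tested, each a point with its 95% interval from limma. Every interval includes 0, and the dashed line marks the median of all genes tested, -0.15.

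The order of the levels was nearly the same in both genotypes. In wild type it ran Tlr2, Cd14, Myd88, Tlr4, Irak3, Ly96, Ticam1, Tlr5, Tlr6, Tlr1, and in knockout Tlr5 and Tlr6 changed places. Neighbours whose library values overlapped were Irak3 with Ly96, Ticam1 with Tlr5 and Tlr5 with Tlr6 in wild type, and Tlr4 with Irak3, Irak3 with Ly96 and Tlr6 with Tlr5 in knockout. Tlr2 and Cd14 together made up between 70.1% and 78.2% of the summed TPM of the 10 genes in every library but knockout replicate 3, where they made up 82.5%. Since no member was called, no gene of similar pattern was sought.

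Ratios between members within a library do not depend on how libraries are scaled, and 6 of them, chosen after the values were seen, were compared. Cd14 exceeded Tlr4 by 9.04, 5.4 and 8.09 times in wild type and by 9.85, 10.07 and 12.08 times in knockout. Tlr2 exceeded Tlr6 by 48.7, 34.3 and 63.1 times in wild type and by 66.6, 71.2 and 81.2 times in knockout. For both ratios every knockout library was above every wild-type library, with mean log2 differences of 0.53 for Cd14 to Tlr4 and 0.62 for Tlr2 to Tlr6, and a two-sided exact permutation p of 0.1 each, the smallest that 3 against 3 allow (0.3 after adjustment over the 6 ratios). Without wild-type replicate 2 these differences were 0.31 and 0.39.

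The other ratios overlapped between the genotypes. Tlr2 to Tlr4 was 11.8 ± 3.21 in wild type and 16.8 ± 2.08 in knockout (SD, n = 3 each), and Cd14 to Ly96 was 10.4 ± 2.01 and 13.4 ± 2.97. Ly96 to Tlr4, the co-receptor to its receptor, was 0.721 ± 0.134 and 0.819 ± 0.164, and Myd88 to Ticam1, the adaptors of the 2 signalling branches, was 7.38 ± 0.927 and 8.41 ± 1.42. Their exact permutation p-values were between 0.2 and 0.5.

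**Figure D4:**
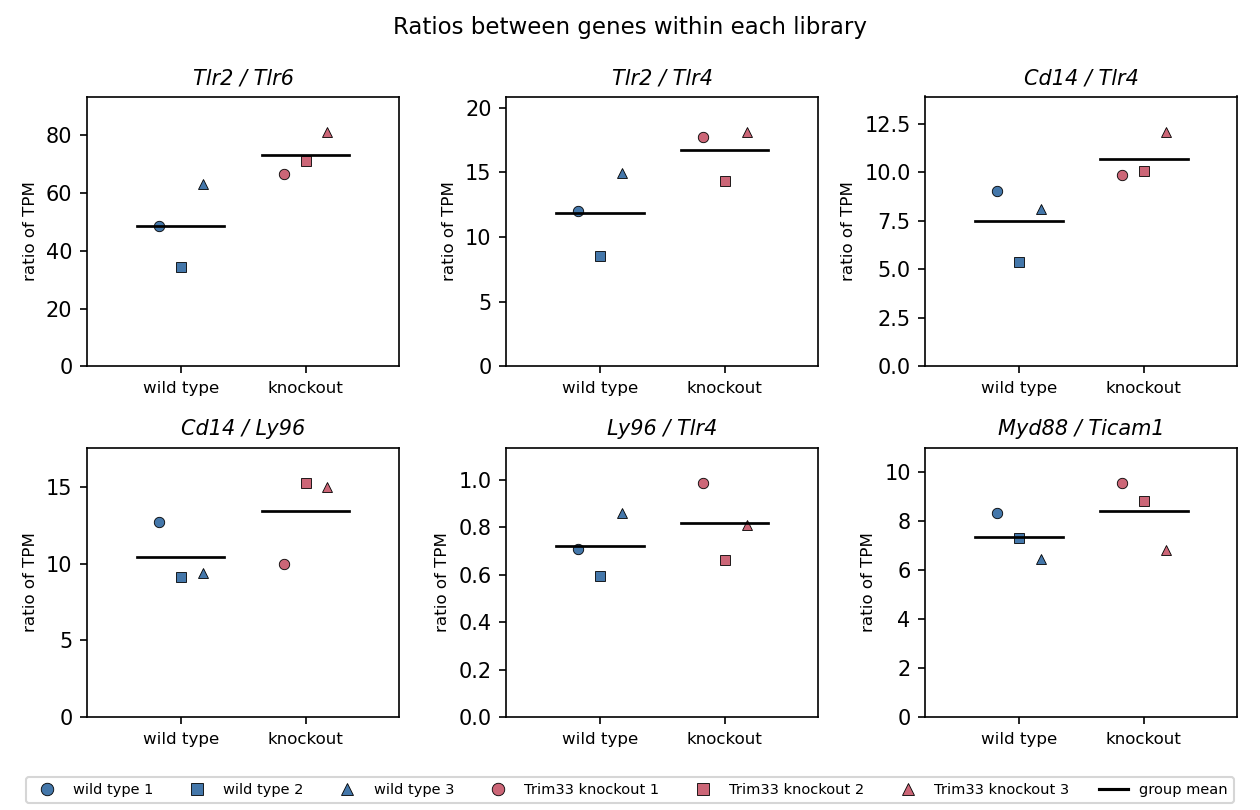
Ratio of TPM between 2 genes within each library (linear axes from 0, 1 point per library, bar at the group mean). The knockout points lie above all wild-type points for Tlr2 to Tlr6 and Cd14 to Tlr4, and the groups overlap in the other 4 panels.

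Other genes of the pathway were read from lists chosen by function, with earlier results of these data known. In the endosomal receptors, most of which sense nucleic acids, 4 of 7 genes were tested and none passed by limma (1 at an unadjusted p under 0.05). Tlr3, the sensor of double-stranded RNA, came nearest, with 9.27 ± 1.28 TPM (wild type) against 13.6 ± 2.53 TPM (knockout; SD, n = 3 each), a log2 difference of 0.50 ± 0.15 (SE) and a limma adjusted p of 0.0532. The single-stranded RNA sensor genes Tlr7 (106 and 109.7 TPM) and Tlr8 (126 and 108 TPM) and the ribosomal RNA sensor gene Tlr13 (60.8 and 58.1 TPM) were abundant in both genotypes. Among chaperones and accessory proteins, none of the 8 tested passed by limma (2 at an unadjusted p under 0.05), and their median was -0.12. Unc93b1, which escorts endosomal receptors, had 309 and 343 TPM, Hsp90b1, the endoplasmic reticulum chaperone of most receptors, 688 and 586 TPM, Cnpy4 20.4 and 17.5 TPM, and Tmed7 81.9 and 65.6 TPM. Tmed7 had an adjusted p of 0.0516.

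In proximal signalling, 3 of 22 genes were lower, 1 was higher and 18 did not pass, where 10.2% of all tested genes were lower and 4.47% higher. The median of the list was -0.22, against -0.15 over all genes. Irak4, the kinase that MyD88 recruits first, fell from 26.2 ± 2.80 to 19.2 ± 0.52 TPM (SD, n = 3 each), with a log2 difference of -0.42 ± 0.11 (SE, limma adjusted p 0.0299). Ticam2, the adaptor that links TLR4 to TRIF, fell from 34.3 ± 6.26 to 23.8 ± 1.08 TPM, and Ikbkb, a catalytic subunit of the IκB kinase, fell from 74.3 ± 8.98 to 54.4 ± 2.13 TPM (limma adjusted p 0.0321 and 0.025). Irf5, a transcription factor activated downstream of MyD88, rose from 78.8 ± 3.74 to 102 ± 11.1 TPM (limma adjusted p 0.0355). The 3 falls no longer passed after median-ratio scaling (Ikbkb -0.28, Irak4 -0.27, Ticam2 -0.34) or when a library was left out, wild-type replicate 1 excepted, and Irf5 stopped passing when wild-type replicate 2, wild-type replicate 3, knockout replicate 1 or knockout replicate 2 was dropped. The lower members numbered 8 without wild-type replicate 1.

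Of 12 negative regulators tested, 2 were higher and none lower, with a median of 0.08, where 4.47% of all tested genes were higher and 10.2% lower, with a median of -0.15. Socs1, which encodes an inhibitor of JAK kinases, rose from 5.06 ± 1.09 to 15.9 ± 5.62 TPM and Trafd1, an inhibitor of TRAF6 signalling, from 89.97 ± 2.25 to 129 ± 20.0 TPM (SD, n = 3 each), with limma adjusted p of 0.0174 and 0.022. The ubiquitin ligase gene Rnf216 had 34.7 and 26.5 TPM and the deubiquitinase gene Cyld 14.1 and 10.8 TPM, with limma adjusted p of 0.058 and 0.062. Neither Socs1 nor Trafd1 passed once wild-type replicate 2, wild-type replicate 3 or knockout replicate 2 was dropped, and Trafd1 also did not pass without knockout replicate 1. Over knockout replicates 1, 2 and 3, Socs1 (20.5, 17.4 and 9.61 TPM) and Trafd1 (143, 137.6 and 106 TPM) followed the order of Ly6c2 (74.5, 73.3 and 18.8 TPM) and C1qa (55.7, 34.3 and 14.8 TPM), and the part of monocytes or interstitial macrophages in these values was not tested.

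Among 14 NF-κB-type target genes tested, 4 were higher and none lower, and all 14 differences were positive, with a median of 0.51. Across all tested genes 4.47% were higher, 10.2% lower and 28.1% positive, with a median of -0.15. Only the 4 higher genes of the list had all knockout values above all wild-type values, against 9.84% of all tested genes. For the other tested targets the genotypes overlapped. The acute-phase gene Saa3 rose from 4.13 ± 0.529 to 17.7 ± 8.96 TPM, Ptgs2, the inducible prostaglandin synthase gene, from 7.53 ± 2.11 to 14.1 ± 1.24 TPM, the mitochondrial superoxide dismutase gene Sod2 from 45.98 ± 11.7 to 83.8 ± 13.5 TPM, and the adhesion molecule gene Icam1 from 87.1 ± 5.33 to 124 ± 17.9 TPM (SD, n = 3 each), with limma adjusted p between 0.0172 and 0.0224. None of the 4 passed once wild-type replicate 2, wild-type replicate 3 or knockout replicate 2 was dropped, and Saa3 and Ptgs2 alone passed without knockout replicate 1. Saa3 (27.6, 15.6 and 10.08 TPM), Sod2 (99.2, 78.5 and 73.7 TPM) and Icam1 (144, 117 and 110.1 TPM) had the same order over knockout replicates 1, 2 and 3 as the monocyte and interstitial macrophage markers Ly6c2 (74.5, 73.3 and 18.8 TPM) and C1qa (55.7, 34.3 and 14.8 TPM), while Ptgs2 was highest in knockout replicate 2. The part of such cells in this list was not tested. Tnf, with 228, 118 and 167 TPM (wild type) against 159.6, 274 and 226 TPM (knockout), did not pass (limma adjusted p 0.397), and wild-type replicate 2 was its lowest library, as it was for Cd14 and Tlr2.

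**Figure D5:**
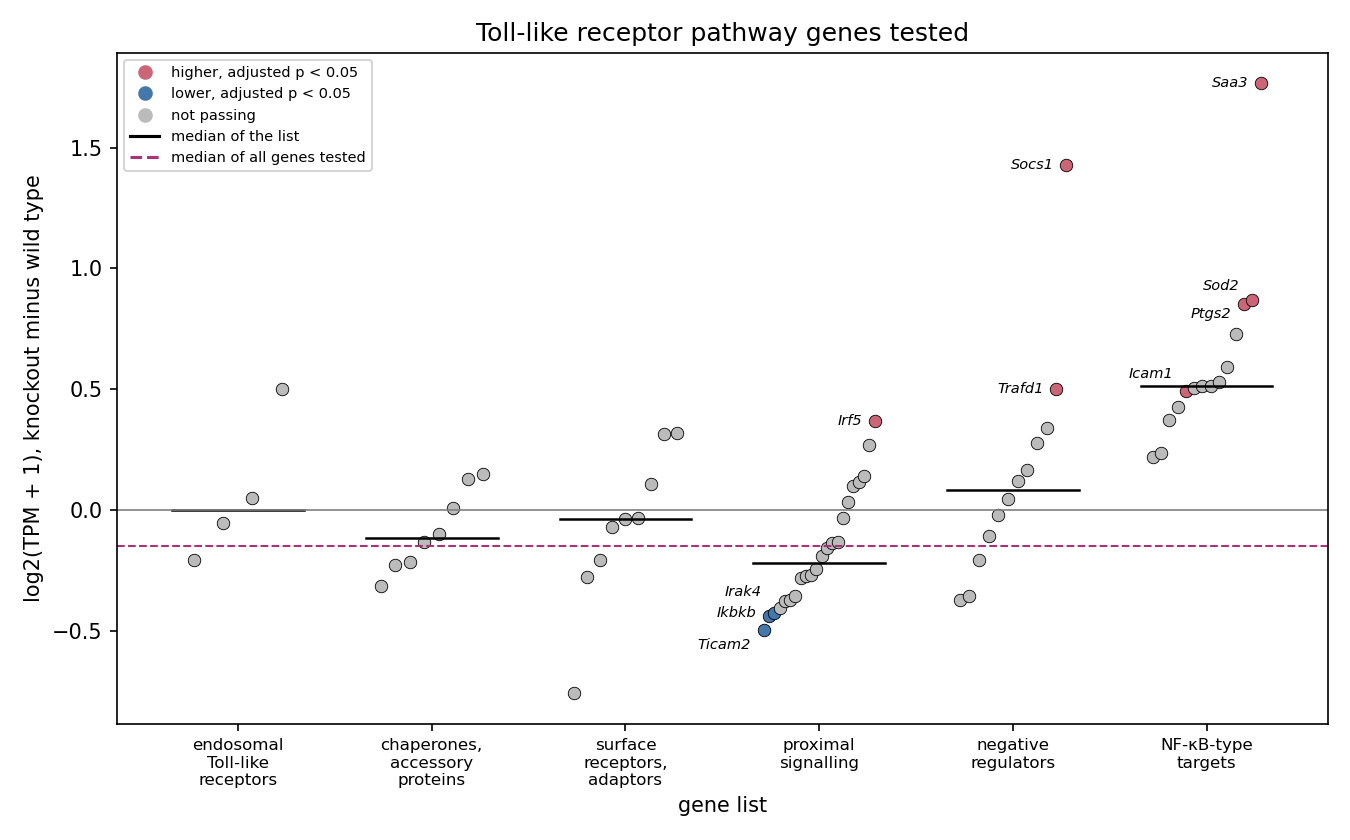
Difference in log2(TPM + 1), knockout minus wild type, of each tested gene in 6 lists, 1 point per gene, with a bar at the median of the list and a dashed line at the median of all genes tested, -0.15. The surface receptor and adaptor genes are all grey, not passing, while proximal signalling holds 3 lower and 1 higher gene and the NF-κB-type targets 4 higher genes.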

How the data were processed

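Bulk RNA-seq of total RNA was compared between 3 wild-type and 3 Trim33 knockout libraries, grouped by their titles. TRIzol extraction and an MGI library kit were used, per the labels' protocols. HISAT2 2.0.4, Bowtie2 2.2.5 and GRCm38.p6 are listed in the submitters' processing notes with no roles, and the sources used here give neither the quantifier nor its annotation and strand use. Per the file headers, the authors' values are TPM (used here) and FPKM (an alternative), deposited with 2 decimals. TPM keeps no depth, so no counting interval is given.

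Genes reaching 1 TPM in 3 or more of the 6 libraries entered limma 3.58.1 (R 4.3.3) as log2(TPM + 1), pseudocount 1, with trended, robust variance moderation and Benjamini-Hochberg adjustment over all 11111 genes, at 0.05. The fit was tested on simulated data. A fold is a ratio of mean TPM. A result on a single marker gene is left out. Members and lists were chosen with earlier results of these data known. The text names all members, up to 4 genes per pathway list with the smallest adjusted p, and marker genes, and Tnf and the ratios were chosen after their values were seen. No 2 libraries were duplicates, since at most 0.369% of tested genes had identical values in a pair. Alternatives were FPKM (minimum 1), other pseudocounts (0.1, 5) and filters (none, 5 TPM), scaling by median ratios or quantiles, plain moderation, library weights, a replicate block and leaving out each library. Sequences came from RefSeq promoters and GENCODE M21 transcripts. Figures used matplotlib 3.10.9 in Python 3.11.15.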

Additional observations from a re-analysis of the deposited data

How the results depend on the processing

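No member was called under any alternative except the replicate block. Under that block 1 member was higher (Tlr2, limma adjusted p 0.0158) and 1 lower (Tlr5, limma adjusted p 0.00417). The library titles give replicate numbers but no pairing. Deviations from the group mean correlated at 0.323, -0.033 and 0.085 between same-numbered libraries, and at most at 0.038, 0.297 and -0.007 with another number. With 3 libraries per group these values cannot settle whether the numbers pair the libraries. That replicate block also gave 1 endosomal receptor higher, 1 accessory gene lower, 7 proximal signalling genes lower, 2 negative regulators lower, and 753 higher and 2147 lower genes in all. The signs of 6 of the 9 tested members held under all 16 alternatives, while Ly96, Irak3 and Ticam1 changed sign in some. With 1 library left out, no member was called, and the ranges were 0 to 1 higher endosomal receptors, 0 to 1 lower accessory genes, 0 to 1 higher and 0 to 8 lower proximal signalling genes, 0 to 3 higher and 0 to 2 lower negative regulators, 0 to 6 higher NF-κB-type targets, and 119 to 798 higher and 80 to 2563 lower genes in all. Higher endosomal receptors numbered 1 (Tlr3) with FPKM values, quantile normalization, median-ratio scaling, library weights or a minimum of 5 TPM. Lower accessory genes numbered 1 with a minimum of 5 TPM or library weights, which also gave 1 higher. Proximal signalling had 0 higher and 0 lower genes with no filter, 0 lower after median-ratio scaling, 1 lower after quantile normalization, 0 higher with plain variance moderation and 5 lower with library weights. Negative regulators had 1 higher with no filter and 2 lower with library weights. Lower genes in all numbered 326 with no filter, 383 after median-ratio scaling, 587 after quantile normalization and 672 with plain moderation, and library weights gave 1004 higher and 2552 lower. The causes of these changes were not tested. Each ratio between members kept its sign when any library was left out. Depth is unknown, so the precision of Tlr1 at these levels cannot be given.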
